A study of Drosophila melanogaster with 12 samples.

Results

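Night and day were compared in heads of CLKGR flies treated with dexamethasone (DEX), with 2 arrays from Zeitgeber time 16 (ZT16, hours since lights on) set against 2 arrays from ZT4. These 4 arrays were chosen by their labels, out of 12 arrays in the series. All 12 were made from heads of CLKGR flies, and all labels name cycloheximide (CHX) beside DEX or V, read here as vehicle. The groups used below are DEX with CHX at ZT16 (2 arrays), DEX with CHX at ZT4 (2 arrays), vehicle with CHX at ZT16 (2 arrays) and vehicle with CHX at ZT4 (1 array). The sources used here do not give the promoter that drives CLKGR, the age and sex of the flies, the number of heads pooled, the DEX dose or the length of treatment. They also do not say whether replicates are separate collections of flies, so p-values cover the spread between arrays, which may be technical, and with so few arrays each value is imprecise.

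CLKGR joins CLOCK (CLK), a transcription factor of the circadian clock, to the ligand-binding domain of the glucocorticoid receptor, so that DEX brings it into action. In the fly clock, CLK and its partner CYC bind E-box sequences and switch on period (per), timeless (tim), vrille (vri), Pdp1 and clockwork orange (cwo), and the PER and TIM proteins return to block CLK. In wild-type heads in a light-dark cycle, tim and per RNA are known to be high early in the night and low in the morning. CHX blocks protein synthesis, so that new repressor protein is not made while DEX acts. The comparison asks which genes differ between night and day when CLKGR is activated at both times.

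Levels are on the log2 scale, read as the natural log of the deposited intensity values. A difference is ZT16 minus ZT4, so a positive value means a higher level at ZT16, and errors of differences are standard errors (SE) with n = 2 arrays per DEX group. Of 18769 probe sets, 11261 had a mean level over the 8 arrays of the table above 2.78 (the filter level) and were tested. The 2 DEX ZT16 arrays stood further apart than the 2 DEX ZT4 arrays. Levels correlated across the tested probe sets at 0.941 for the ZT16 pair and 0.980 for the ZT4 pair, and 819 probe sets differed by more than 1 between the ZT16 arrays, against 165 between the ZT4 arrays. Across times the DEX arrays correlated at 0.958 to 0.965, so each ZT16 array was closer to the ZT4 arrays than to its own replicate. Many of the differences below rest in part on 1 array. Where leaving out an array turned the sign of a single-gene or list difference or shrank it by over 1.5 times, the value without that array is given beside it. For this a gene stands for its probe set with the highest mean. Values of second probe sets are given without this check. As a check of the tissue, the eye arrestin gene Arr2 had 11.17 and 10.64 at ZT16, against 10.35 and 10.33 at ZT4. Of 11 named testis and ovary markers 5 passed the filter, with mean levels of 2.83 and 2.94 at ZT16, against 2.83 and 2.89 at ZT4, close to the filter level.

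In DEX heads no probe set passed limma's test for the difference between times after Benjamini-Hochberg adjustment over all 11261 (0 called, 0%, smallest adjusted p 0.963). An unadjusted p under 0.05 was found for 441 probe sets (3.92%), of which 228 were higher at ZT16 (2.02%) and 213 lower (1.89%), where chance gives 563. This even split rested on single arrays. More probe sets were higher than lower without the second ZT16 replicate, and more were lower without the second ZT4 replicate. Such fits leave 1 array in a group and take the spread from the remaining pair alone, so their counts by direction are not given. An exact permutation test of a single gene could not go below a two-sided p of 0.333 with 2 arrays against 2. The difference was above 0 for 48.3% of the probe sets. Both ZT16 arrays lay above both ZT4 arrays for 1475 probe sets (13.1%) and below both for 1889 (16.8%), and these shares are the background for the counts of non-overlapping genes below. Because nothing passed in the fit of the 4 DEX arrays, the genes below are described by their values.

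The core clock genes tim, per, vri and Clk lay lower on both DEX ZT16 arrays than on both DEX ZT4 arrays. The repressor gene tim had levels of 9.42 and 8.21 at ZT16, against 10.58 and 10.30 at ZT4. Both night arrays lay below both day arrays, and the difference for tim was -1.63 ± 0.47, or 3.09-fold lower at ZT16. A second probe set of tim gave 8.09 and 7.02 at ZT16, against 9.19 and 9.07 at ZT4, a difference of -1.58 ± 0.43. Vehicle heads had tim at 5.49 and 6.43 at ZT16 and 6.70 at ZT4, below all 4 DEX arrays.

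Its partner per had levels of 10.62 and 9.52 at ZT16, against 11.04 and 10.74 at ZT4, a difference of -0.82 ± 0.43. The gene vri, which encodes a bZIP repressor of Clk, had 9.33 and 8.24 at ZT16, against 9.53 and 9.38 at ZT4, a difference of -0.67 ± 0.43. For Clk itself, levels were 7.0 and 6.69 at ZT16, against 7.21 and 7.36 at ZT4, a difference of -0.45 ± 0.24. In these 3 genes, as in tim, the groups did not overlap, while limma's adjusted p over all probe sets was 0.963 for each of the 4. The second ZT16 replicate was the lower one in each of them. Without it the differences were -1.02 for tim, -0.27 for per, -0.13 for vri and -0.29 for Clk, and without the first ZT16 replicate they were -2.23, -1.37, -1.21 and -0.60 in the same order.

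The other 4 core genes overlapped between times. The transcriptional repressor gene cwo had 8.99 and 6.74 at ZT16, against 8.23 and 8.51 at ZT4. Its difference of -0.50 ± 0.82 was 0.62 without the second ZT16 replicate. A second probe set of cwo gave -0.90 ± 0.79, with 5.64 and 3.47 at ZT16, against 5.61 and 5.31 at ZT4. There too only the second ZT16 array lay below the day arrays. Pdp1, which encodes a bZIP activator of Clk, had 6.66 and 5.31 at ZT16, against 5.48 and 5.46 at ZT4. The first ZT16 array of Pdp1 stood above the other 3, with a difference of 0.52 ± 0.51 that was -0.16 without that array. The photoreceptor gene cry differed by 0.11 ± 0.26 and cyc by 0.034 ± 0.22, and both turned in sign without the first ZT16 replicate (-0.23 for cry and -0.16 for cyc).

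As a list, 4 of 8 core clock genes lay lower at ZT16 without overlap (50%, background 16.8%) and 0 higher (background 13.1%). The median difference of the 8 core clock genes was -0.47, against 0.00 over all tested probe sets. It was -0.91 without the first ZT16 replicate and 0.05 without the second, so the list's direction rested on the second ZT16 array. In vehicle heads the median difference of the core clock genes was 0.11.

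**Figure D1:**
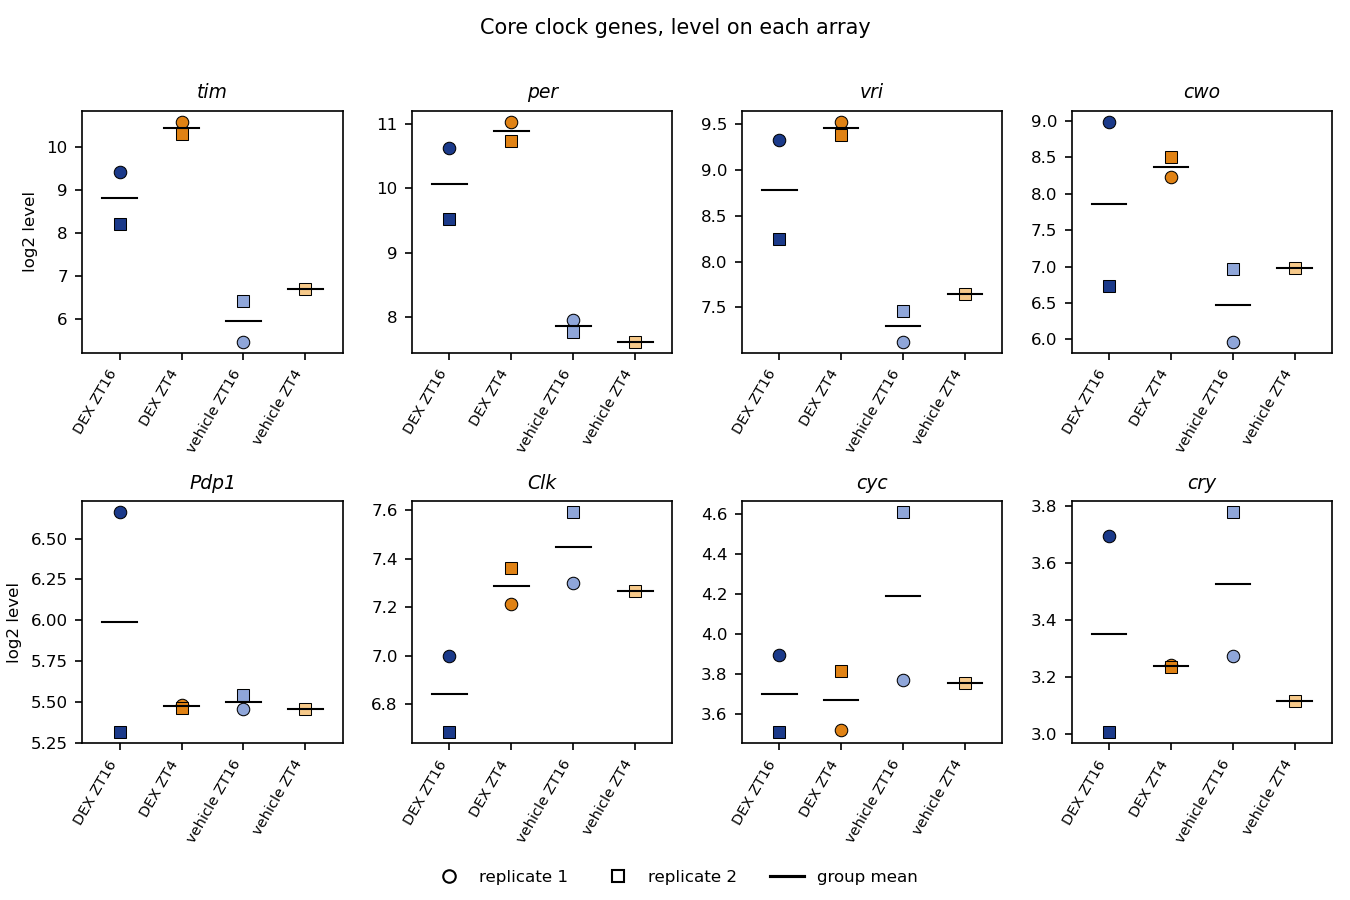
Log2 level of the 8 core clock genes on each array. Circles are replicate 1, squares replicate 2 and bars group means. The DEX ZT16 points of tim, per, vri and Clk lie below their DEX ZT4 points, and for tim, per and vri all DEX points lie above the vehicle points.

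Kinases, phosphatases and F-box proteins set the stability of PER and TIM. Of 9 tested genes of this kind, 3 lay lower at ZT16 without overlap (33.3%) and 0 higher, with a median difference of -0.013, or 0.06 without the second ZT4 replicate. The F-box gene slmb, whose product targets phosphorylated PER for degradation, had 3.61 and 3.98 at ZT16, against 4.16 and 4.28 at ZT4, a difference of -0.42 ± 0.20, or -0.24 without the first ZT16 replicate. The phosphatase subunit gene tws differed by -0.30 ± 0.17, or -0.12 without the first ZT4 replicate. The ubiquitin ligase gene ctrip differed by -0.30 ± 0.19, or -0.17 without the second ZT16 replicate, and its second probe set by -0.12 ± 0.08. A list of genes known as rhythmic outputs had no common direction, with 5 of 14 higher and 4 lower without overlap and a median of 0.06, or -0.04 without the second ZT4 replicate.

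Genes that lay above vehicle on every DEX array were next set in order by time. This grouping was made after the values were seen and carries no test. All 4 DEX arrays lay above all 3 vehicle arrays for 224 probe sets (1.99%), which held 189 genes, and below all 3 for 284 probe sets (2.52%). Of the 189 genes, 47 were lower at ZT16 than at ZT4 without overlap (24.9%, background 16.8%). Another 26 were higher (13.8%, background 13.1%), and 116 overlapped. Among the 47, 11 genes differed by more than 1 between times, against 0 among the 26. The share of all tested genes past 1 was not counted, so these counts are a description only. With any 1 DEX array left out, only tim, Tina-1 and CG15096 of the 11 stayed past 1 in size. The 11 were tim, CG6048, CG8008, Tina-1, l(2)k01209, CG15096, CG18135, rost, fbl, MFS14 and Cln3.

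Of these, MFS14, a gene of the major facilitator family of transporters, had 11.85 and 11.09 at ZT16, against 12.79 and 12.55 at ZT4, a difference of -1.20 ± 0.31. On vehicle arrays MFS14 lay at 9.24 and 9.52 at ZT16 and 9.73 at ZT4. Its night level with DEX thus lay between its day level with DEX and its vehicle levels. CG15096 had 8.63 and 8.24 at ZT16, against 9.79 and 9.86 at ZT4, a difference of -1.39 ± 0.24, and 5.91 and 6.86 at ZT16 and 6.81 at ZT4 with vehicle. The pantothenate kinase gene fbl had 7.22 and 7.47 at ZT16, against 8.77 and 8.34 at ZT4, a difference of -1.21 ± 0.27. In CG15096 and fbl the gap between the times was larger than the gap within either pair of DEX replicates.

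The lysosomal gene Cln3 had 4.16 and 4.48 at ZT16, against 5.46 and 5.34 at ZT4. Tina-1 had 6.39 and 5.63 at ZT16, against 7.81 and 7.11 at ZT4. The differences of the remaining members were -1.61 for CG6048, -1.53 for CG8008, -1.41 for l(2)k01209, -1.29 for CG18135 and -1.28 for rost. Some of these rested on 1 array: without the second ZT16 replicate the difference was -0.52 for CG8008, -0.46 for l(2)k01209 and -0.61 for CG18135, and without the first ZT4 replicate it was -0.66 for CG6048. In the opposite order, with DEX ZT16 above DEX ZT4 above vehicle, the largest differences were those of nkt (0.63), CG42240 (0.61), the ribonucleotide reductase gene RnrL (0.57) and Gclm (0.53), which encodes a subunit of the enzyme that starts glutathione synthesis. Without the second ZT16 replicate the difference was 0.30 for nkt and 0.33 for Gclm, and without the first it was 0.33 for RnrL. The step from vehicle to DEX ZT4 was small in these genes. The lowest DEX ZT4 array and the highest vehicle array lay at 2.71 and 2.67 for nkt and 5.83 and 5.80 for CG42240. They lay at 3.47 and 3.45 for RnrL and 3.81 and 3.79 for Gclm. For nkt these levels are below the filter level. The order DEX ZT4, DEX ZT16, vehicle was found for 54 probe sets (0.48%) and the order DEX ZT16, DEX ZT4, vehicle for 28 (0.249%).

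**Figure D2:**
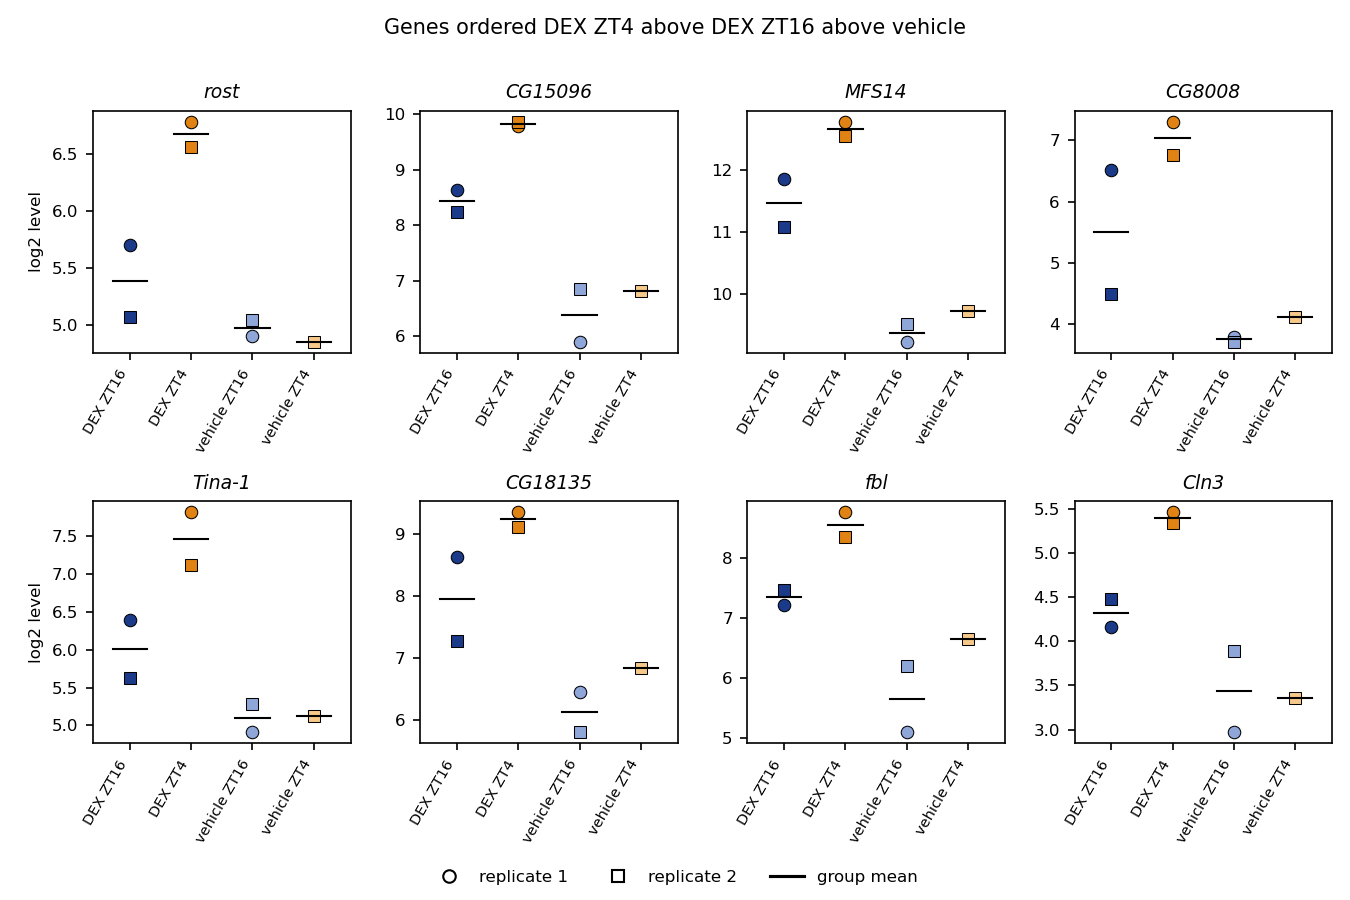
Log2 level on each array of 8 genes whose DEX ZT4 arrays lie above their DEX ZT16 arrays, with all DEX arrays above the vehicle arrays. Circles are replicate 1, squares replicate 2, bars are group means and a dotted line, where drawn, is the filter level; CG8008 shows a wide gap between its DEX ZT16 replicates.

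Genes of the eye held several of the largest differences in the other direction. The gene retinin, which encodes a protein of the corneal lens, had 9.28 and 8.28 at ZT16, against 6.41 and 4.42 at ZT4. Both night arrays were higher, and the difference for retinin was 3.37 ± 0.81, or 10.3-fold. Pdh, which encodes a dehydrogenase of retinal pigment cells, had 8.55 and 8.42 at ZT16, against 6.03 and 5.05 at ZT4, a difference of 2.95 ± 0.40, or 7.71-fold. CG4962 had 6.94 and 6.52 at ZT16, against 4.77 and 3.68 at ZT4, a difference of 2.51 ± 0.45. The neuropeptide-like precursor gene Nplp3 had 6.43 and 5.86 at ZT16, against 4.98 and 4.86 at ZT4, a difference of 1.22 ± 0.28. In all 4 genes both night arrays lay above both day arrays.

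These 4 genes were also higher at night in vehicle heads. Vehicle levels were 7.20 and 8.68 at ZT16 and 4.98 at ZT4 for retinin and 7.55 and 8.35 at ZT16 and 5.88 at ZT4 for Pdh. They were 5.65 and 7.18 at ZT16 and 4.56 at ZT4 for CG4962 and 5.65 and 6.05 at ZT16 and 4.51 at ZT4 for Nplp3. Both vehicle ZT16 arrays lay above the single vehicle ZT4 array in each of them, as for 29.5% of all tested probe sets. The difference between times with DEX minus that with vehicle was 0.41 ± 1.30 for retinin and 0.87 ± 0.71 for Pdh (-0.59 for retinin and 0.38 for Pdh without the second DEX ZT4 replicate), and limma's adjusted p was 0.997 for both.

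Phototransduction genes leaned the same way. Of 26 listed genes 15 had a named probe set, no rhodopsin among them, and 9 of these 15 were higher at ZT16 without overlap (60%, background 13.1%) and 0 lower. The eye protein kinase C gene inaC had 4.08 and 4.17 at ZT16, against 3.39 and 3.29 at ZT4, a difference of 0.79 ± 0.15. The light-activated channel gene trpl had 6.71 and 5.97 at ZT16, against 5.55 and 5.20 at ZT4, a difference of 0.97 ± 0.35, or 0.59 without the first ZT16 replicate. The arrestin genes Arr2 and Arr1, whose products quench active rhodopsin, differed by 0.56 ± 0.24 and 0.78 ± 0.41, and rdgB, a phosphatidylinositol transfer gene, by 0.83 ± 0.42. Without the first ZT16 replicate these differences were 0.29 for Arr2, 0.28 for Arr1 and 0.30 for rdgB. A second probe set of rdgB gave 0.53 ± 0.22, with 3.65 and 3.19 at ZT16, against 2.69 and 3.08 at ZT4. The first ZT16 replicate was the higher one in these genes apart from inaC. The median difference of the list was 0.51, or 0.19 without the first ZT16 replicate and 0.74 without the second. Vehicle heads leaned the same way, with a median of 0.22 for this list. Among 15 tested genes of eye structure and pigment cells, 7 were higher without overlap (46.7%) and 1 lower, with a median of 0.15 that was -0.005 without the first ZT16 replicate. The median of these eye genes in vehicle heads was 0.26. The photoreceptor adhesion gene chp differed by 0.95 ± 0.34, or 0.54 without the first ZT16 replicate.

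**Figure D3:**
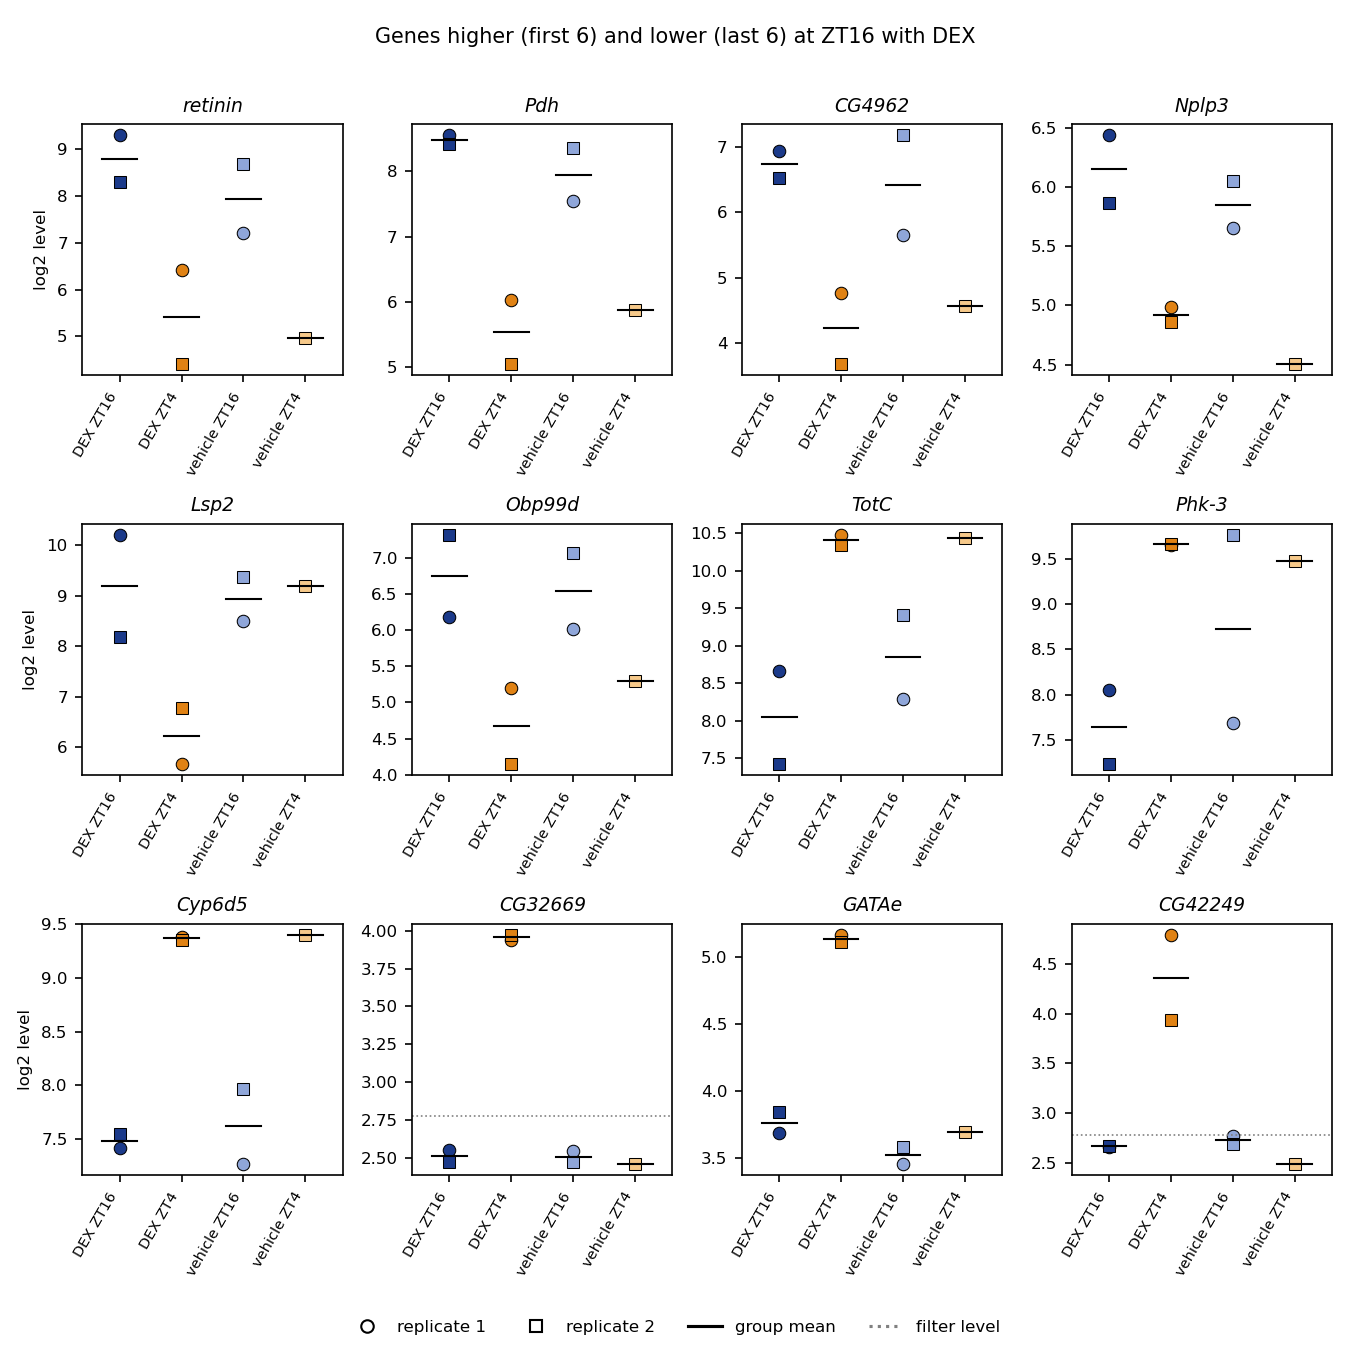
Log2 level on each array of 12 genes that differ between times in DEX heads. Circles are replicate 1, squares replicate 2, bars are group means and the dotted line is the filter level; the first 6 genes are higher on both DEX ZT16 arrays than on both DEX ZT4 arrays, the last 6 are lower, and CG32669, GATAe and CG42249 are high on the DEX ZT4 arrays.

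Several neuronal genes were higher on both night arrays, while the medians of the neuronal lists were close to 0 without the first ZT16 replicate. Of 18 tested genes of synapses and transmitters, 7 were higher without overlap (38.9%) and 1 lower (5.56%), with a median of 0.34 that was 0.067 without the first ZT16 replicate. In vehicle heads the median of this list was 0.29, so the lean was not particular to DEX heads. ChAT, whose product makes acetylcholine, had 3.60 and 4.01 at ZT16, against 2.92 and 2.93 at ZT4, a difference of 0.88 ± 0.18. The synapsin gene Syn had 4.96 and 4.53 at ZT16, against 3.77 and 3.87 at ZT4, a difference of 0.93 ± 0.23. Both night arrays were the higher ones in both genes. Gad1, whose product makes GABA, had 5.72 and 4.99 at ZT16, against 3.76 and 4.32 at ZT4, a difference of 1.31 ± 0.37. The vesicle fusion gene Snap25 differed by 0.81 ± 0.25.

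Among 20 tested ion channel genes, 9 were higher without overlap (45%) and 2 lower (10%), with a median of 0.20 that was 0.08 without the first ZT16 replicate. Their median in vehicle heads was 0.15. The nicotinic receptor subunit gene nAChRbeta1 differed by 0.56 ± 0.24, or 0.35 without the second ZT4 replicate. The potassium channel gene Sh differed by 1.04 ± 0.47, or 0.45 without the first ZT16 replicate, and its other probe sets by -0.41 to 0.81. Among 21 tested neuropeptide and receptor genes, 9 were higher (42.9%) and 2 lower (9.52%), with a median of 0.12 that was 0.048 without the first ZT16 replicate. Vehicle heads gave a median of 0.13 for them. The precursor gene Nplp1 had 3.89 and 3.74 at ZT16, against 2.86 and 2.90 at ZT4, a difference of 0.94 ± 0.12. With vehicle Nplp1 lay at 2.89 and 3.07 at ZT16 and 3.0 at ZT4, so that only the DEX ZT16 arrays of these 7 were high. AkhR, the receptor gene for the hormone that mobilises stored fat, had 3.67 and 3.85 at ZT16, against 3.04 and 3.15 at ZT4.

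Markers of neurons and glia were higher on the first ZT16 array than on the other 3 DEX arrays, while muscle markers differed little. The mean level of 10 pan-neuronal markers was 5.25 and 4.82 at ZT16, against 4.56 and 4.74 at ZT4, with 5 higher and 0 lower without overlap and a median difference of 0.24, or 0.08 without the first ZT16 replicate. The mean level of 12 glial markers was 5.18 and 4.76 at ZT16, against 4.70 and 4.71 at ZT4, with 6 higher and 0 lower. The median difference of the glial markers was 0.34, or 0.029 without the first ZT16 replicate. With vehicle the median was 0.26 for the pan-neuronal and 0.053 for the glial markers. Among the glial markers, the sodium pump subunit gene nrv2 differed by 0.68 ± 0.22. The glutamine synthetase gene Gs2 differed by 0.59 ± 0.32, or 0.23 without the first ZT16 replicate. The 16 muscle markers averaged 4.31 and 4.28 at ZT16, against 4.34 and 4.29 at ZT4, with a median difference of -0.016 (0.016 without the second ZT4 replicate), and 1 was higher and 1 lower. The 7 haemocyte markers averaged 4.45 and 4.40 at ZT16, against 4.21 and 4.28 at ZT4, with 1 higher and 2 lower without overlap. Their median difference was 0.11, or -0.046 without the first ZT16 replicate, and the higher one was the peroxidasin gene Pxn with 0.58 ± 0.20. In RNA of whole heads, more cells of a type and more RNA per cell cannot be told apart, and the part of tissue makeup in these differences was not tested.

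Genes of the head fat body were higher at ZT16 with DEX. Of 12 tested genes, 8 were higher without overlap (66.7%) and 2 lower (16.7%), with a median of 0.53 (0.34 without the first ZT16 replicate), against -0.26 in vehicle heads. The storage protein gene Lsp2 had 10.19 and 8.18 at ZT16, against 5.68 and 6.78 at ZT4, a difference of 2.96 ± 0.83, or 7.77-fold, and 1.95 without the first ZT16 replicate. With vehicle Lsp2 lay at 8.50 and 9.36 at ZT16 and 9.18 at ZT4, so that the DEX ZT4 arrays were the low ones. The lipid transfer gene Mtp had 5.07 and 5.51 at ZT16, against 4.57 and 4.54 at ZT4. CG9360 had 3.72 and 3.58 at ZT16, against 2.92 and 2.95 at ZT4. Both genes were higher on both night arrays. The difference between times with DEX minus that with vehicle was 3.21 ± 1.19 for Lsp2 and 0.75 ± 0.19 for CG9360, and limma's adjusted p was 0.997 for both.

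Among 6 female fat body and yolk genes, 1 was higher and 1 lower without overlap, with a median of 0.32 that was -0.077 without the first ZT4 replicate. The gene fit had 8.56 and 8.50 at ZT16, against 5.52 and 8.15 at ZT4. Its difference of 1.69 ± 0.95 rested on the first ZT4 replicate and was 0.38 without it. The yolk protein gene Yp3 overlapped, with 13.97 and 14.43 at ZT16, against 13.25 and 14.27 at ZT4, and its difference of 0.44 ± 0.40 was -0.077 without the first ZT4 replicate. In the list of lipid storage, insulin and starvation genes, 5 of 20 were higher and 3 lower without overlap, with a median of 0.14 that was -0.089 without the first ZT16 replicate. Pepck1, a gene of gluconeogenesis, had 11.69 and 11.77 at ZT16, against 11.02 and 11.04 at ZT4, a difference of 0.70 ± 0.14. The fatty acid synthase gene FASN1 differed by 0.62 ± 0.30, or 0.36 without the first ZT16 replicate. The acetyl-CoA carboxylase gene ACC differed by 0.54 ± 0.22 and Lsd-1, whose product coats lipid droplets, by -0.63 ± 0.24.

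Odorant binding protein genes had 7 of 25 members higher without overlap (28%) and 0 lower, with a median of 0.17 that was -0.047 without the first ZT16 replicate. The median of this list in vehicle heads was 0.24. Obp99d had 6.19 and 7.32 at ZT16, against 5.20 and 4.15 at ZT4, a difference of 2.08 ± 0.58, and with vehicle it lay at 6.01 and 7.07 at ZT16 and 5.30 at ZT4. Obp99c had 9.99 and 10.13 at ZT16, against 8.98 and 9.32 at ZT4. Both were higher on both night arrays. Obp99b had 6.84 and 3.23 at ZT16, against 3.22 and 3.08 at ZT4, and its difference of 1.89 ± 1.28 was 0.08 without the first ZT16 replicate. Obp44a differed by 1.26 ± 0.49, or 0.74 without the second ZT16 replicate, and Obp99a by 1.55 ± 0.80, which was 0.53 without the first ZT4 replicate.

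Heat shock and chaperone genes were higher at ZT16 in 6 of 11 cases without overlap (54.5%) and lower in 0, with a median of 0.50, against 0.053 in vehicle heads. The small heat shock gene Hsp27 had 10.09 and 10.71 at ZT16, against 9.15 and 9.42 at ZT4, a difference of 1.11 ± 0.29. Hsp68, of the Hsp70 family, had 10.91 and 11.78 at ZT16, against 10.46 and 10.13 at ZT4, a difference of 1.05 ± 0.36, or 0.62 without the second ZT16 replicate. In both genes the second ZT16 replicate was the highest of the 4 arrays. The co-chaperone genes stv and DnaJ-1 differed by 0.63 ± 0.21 and 0.83 ± 0.33, and Hsp110 by 0.50 ± 0.22. The value for DnaJ-1 was 0.52 without the second ZT16 replicate. The list's median was 0.69 without the first ZT16 replicate and 0.16 without the second.

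Large housekeeping lists showed small differences. Of 46 tested nuclear genes of the respiratory chain, 23 were higher at ZT16 without overlap (50%) and 3 lower (6.52%), with a median of 0.16 (0.097 without the second ZT4 replicate), against -0.20 in vehicle heads. Of 30 tested ribosomal protein genes, 13 were higher (43.3%) and 1 lower (3.33%), with a median of 0.097 that was 0.011 without the second ZT4 replicate. Proteasome genes had 4 of 26 higher (15.4%) and 0 lower, and their median of 0.14 was -0.099 without the second ZT16 replicate.

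**Figure D4:**
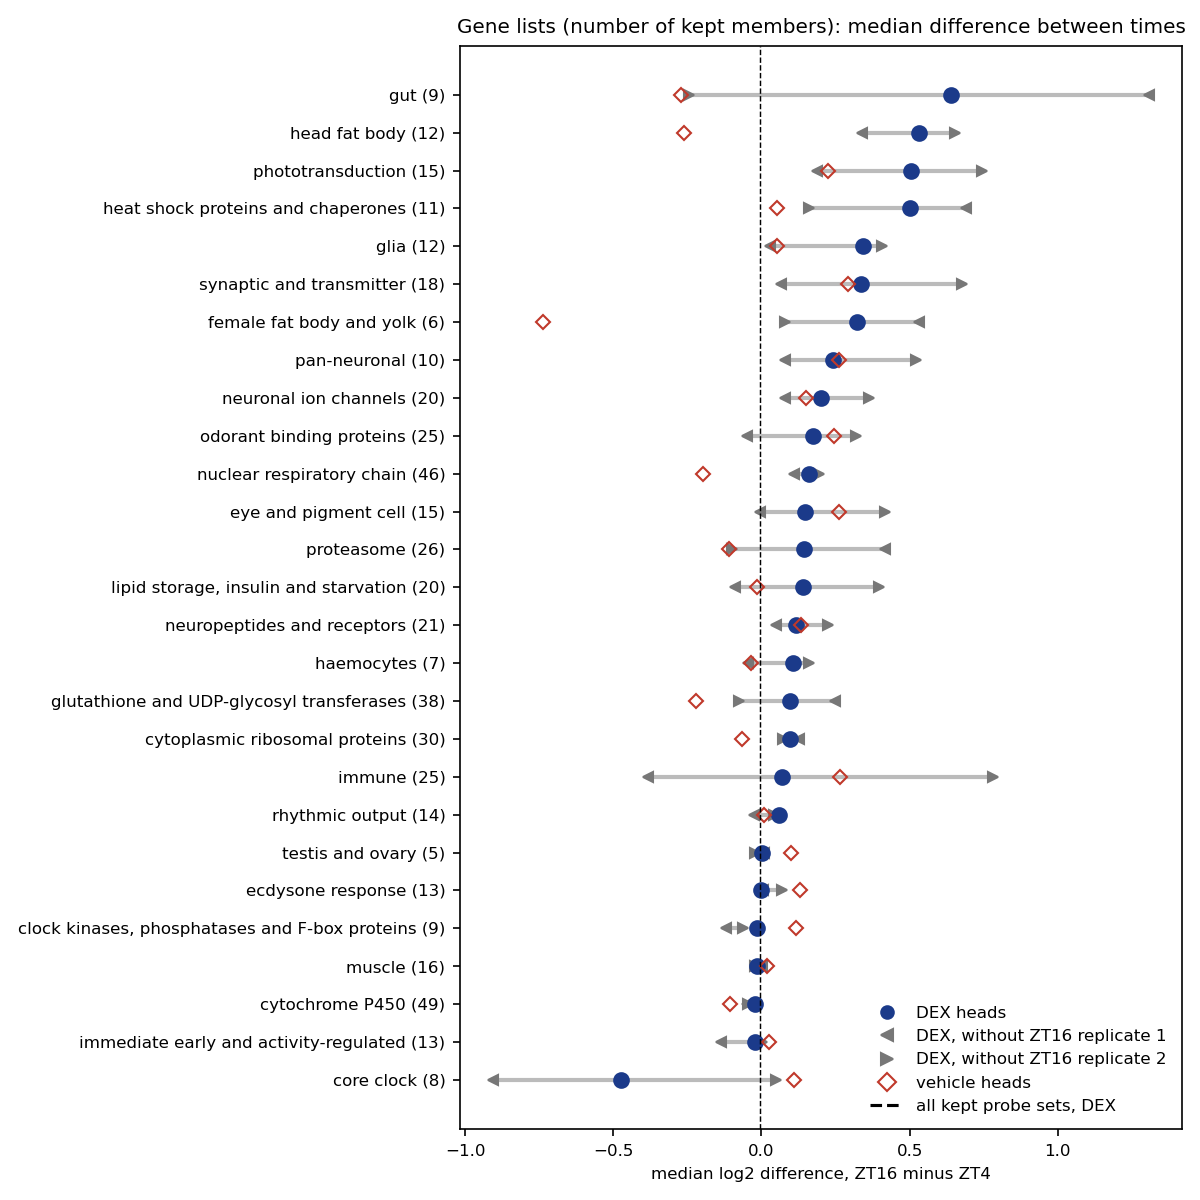
Median log2 difference between ZT16 and ZT4 for 27 gene lists, with the number of tested members in brackets. Filled circles are the 4 DEX arrays, triangles the DEX arrays without 1 of the ZT16 replicates, open diamonds the vehicle arrays and the dashed line all tested probe sets; phototransduction, head fat body and heat shock genes lie to the right of the line with either ZT16 replicate left out, and the core clock and immune lists span it.

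Some single genes of detoxification and stress were lower at ZT16, without a common direction of such genes. The medians of the cytochrome P450 and transferase lists lay close to 0, and heat shock genes leaned higher. The cytochrome P450 gene Cyp6d5 had 7.41 and 7.55 at ZT16, against 9.38 and 9.36 at ZT4, a difference of -1.89 ± 0.21, or 3.7-fold lower. With vehicle Cyp6d5 lay at 7.27 and 7.97 at ZT16 and 9.40 at ZT4, so that night was lower in both treatments. Of 49 tested P450 genes, 12 were lower without overlap (24.5%) and 7 higher (14.3%), with a median of -0.021 that was -0.00089 without the second ZT4 replicate. Cyp4aa1 had 4.20 and 4.09 at ZT16, against 6.12 and 4.95 at ZT4, and Cyp6a8 had 4.69 and 5.86 at ZT16, against 6.60 and 6.55 at ZT4. The difference of Cyp4aa1 was -1.39, or -0.80 without the first ZT4 replicate, and that of Cyp6a8 was -1.30, or -0.71 without the first ZT16 replicate. Cyp4d1 differed by -0.38 ± 0.083 and Cyp28d1, in the other direction, by 0.79 ± 0.27. Among 38 glutathione and UDP-glycosyl transferase genes, 5 were higher and 6 lower, and their median of 0.097 was -0.075 without the second ZT16 replicate. Named members were GstS1 at 0.95 ± 0.24, Ugt35B1 at 0.78 ± 0.23 and GstE6 at -0.61 ± 0.18.

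TotC, a Turandot gene known to be induced by stress and infection, had 8.67 and 7.43 at ZT16, against 10.47 and 10.34 at ZT4, a difference of -2.36 ± 0.48, or 5.13-fold lower. With vehicle TotC lay at 8.30 and 9.41 at ZT16 and 10.44 at ZT4, again lower at night. Other immune genes had no common direction, with 2 of 25 higher and 2 lower without overlap. The mean level of the immune list was 7.69 and 5.86 at ZT16, against 6.72 and 6.49 at ZT4, so that the night arrays lay on both sides of the day arrays. The list's median of 0.068 was -0.38 without the first ZT16 replicate and 0.78 without the second.

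Other large differences towards lower levels at ZT16 were those of CG42792 (-2.68 ± 1.08), the pherokine gene Phk-3 (-2.02 ± 0.35), yellow-d (-1.97 ± 0.32), the proton pump subunit gene Vha100-5 (-1.81 ± 0.67), Srg2 (-1.74 ± 0.36), hiro (-1.69 ± 0.58) and CG1213 (-1.69 ± 0.76). Phk-3 had 8.05 and 7.24 at ZT16, against 9.66 and 9.66 at ZT4. Some of these rested in part on 1 array: the difference was -1.21 for CG42792 without the second replicate, and -0.93 for Vha100-5 and -0.66 for CG1213 without the first, while hiro was at -0.91 without the first ZT4 replicate. With vehicle yellow-d lay at 2.77 and 8.31 at ZT16 and 6.51 at ZT4, a wide range within the vehicle ZT16 pair. Srg2 lay at 6.39 and 9.38 at ZT16 and 8.60 at ZT4 with vehicle. Phk-3 lay at 7.69 and 9.76 at ZT16 and 9.48 at ZT4 with vehicle. In both genes the vehicle ZT16 pair thus stood further apart than the times did with DEX. Of 13 immediate early and activity-regulated genes, 3 were lower (23.1%) and 0 higher, with a median of -0.023 that was 0.00052 without the second ZT16 replicate. Among them Arc1 had 12.43 and 12.37 at ZT16, against 12.82 and 12.76 at ZT4, and the zinc finger gene cbt differed by -1.05 ± 0.50, or -0.39 without the second ZT16 replicate. Of 13 ecdysone response genes, 2 were higher and 3 lower, and their median of -0.003 was 0.11 without the second ZT4 replicate.

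Markers of the gut differed between the ZT16 replicates. Of 13 named gut genes 9 passed the filter, and their mean level was 4.63 and 6.52 at ZT16, against 5.58 and 4.85 at ZT4. The digestive protease gene Jon65Aiv had 4.81 and 8.61 at ZT16, against 6.04 and 3.97 at ZT4, and its difference of 1.70 ± 1.53 was -0.20 without the second ZT16 replicate. Their median difference of 0.64 was -0.24 without the second ZT16 replicate. The gut gene that did not overlap was Mur29B, with 5.33 and 4.13 at ZT16, against 6.11 and 6.72 at ZT4, a difference of -1.69 ± 0.51 that was -1.09 without the second ZT16 replicate. The second ZT16 replicate was thus the high one for the gut mean and for the named heat shock genes, and the low one for tim, per, vri and cwo. The part of gut tissue in these differences was not tested.

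A further set of genes was high on the DEX ZT4 arrays. CG32669 had 2.55 and 2.47 at ZT16, against 3.94 and 3.97 at ZT4, and 2.54 and 2.47 at ZT16 and 2.46 at ZT4 with vehicle. Its difference of -1.44 ± 0.094 had the smallest p of all tested probe sets, with an adjusted p of 0.963 in the limma fit of the 4 DEX arrays. In limma's fit over the 7 arrays with a labelled time, which share one estimate of the spread, CG32669 alone passed of 11261 (0.00888%), where its adjusted p was 0.0366. Its ZT16 levels with DEX and all its vehicle levels lie below the filter level, where differences in level are uncertain. Among the timed arrays only those of DEX ZT4 lay above that level. The filter was thus passed through the arrays that make up the difference, and the call is given as a description only.

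GATAe, which encodes a GATA factor of the midgut, had 3.68 and 3.84 at ZT16, against 5.16 and 5.11 at ZT4, and 3.46 and 3.58 at ZT16 and 3.69 at ZT4 with vehicle. CG42249 had 2.66 and 2.67 at ZT16, against 4.79 and 3.93 at ZT4, and 2.77 and 2.69 at ZT16 and 2.49 at ZT4 with vehicle. Among the timed arrays only those of DEX ZT4 lay above the filter level for CG42249, so its difference is uncertain. A second probe set of CG42249 gave 3.08 and 3.17 at ZT16, against 3.06 and 3.04 at ZT4, a difference of 0.068 ± 0.078, so the probe sets of this gene disagree. CG6928 had 4.01 and 3.89 at ZT16, against 5.49 and 5.24 at ZT4. Kah, a zinc finger gene of the Snail group, had 2.84 and 2.79 at ZT16, close to the filter level, against 3.53 and 3.49 at ZT4. All 4 were higher on both DEX ZT4 arrays than on the other 5 timed arrays, as were 479 probe sets (4.25%), while 454 were lower (4.03%). Both DEX ZT16 arrays lay above the other 5 for 356 probe sets (3.16%) and below them for 357 (3.17%). Among those above, the cuticle protein gene Cpr78Cb had 3.19 and 3.18 at ZT16, against 2.71 and 2.71 at ZT4, which lie below the filter level. The carbonic anhydrase gene CAHbeta had 4.87 and 5.54 at ZT16, against 3.73 and 3.38 at ZT4, and Kaz-m1 had 5.49 and 5.88 at ZT16, against 4.36 and 4.22 at ZT4.

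The remaining genes with the smallest p that were higher at ZT16 were CG14937 (0.39 ± 0.053), the integrin activator gene Fit2 (0.52 ± 0.084), the calcium release channel gene RyR (1.01 ± 0.18) and Rtc1 (0.42 ± 0.075). Those lower at ZT16 were CG17721 (-1.42 ± 0.19), CG11951 (-0.61 ± 0.084), acs (-0.29 ± 0.041), CG15084 (-0.45 ± 0.064) and Osi6 of the Osiris family (-1.56 ± 0.22). The ZT4 levels of CG14937 and Rtc1 and the ZT16 levels of CG11951, acs and CG15084 lie below the filter level. There, differences in level are uncertain and a small SE says little. With vehicle Osi6 lay at 2.67 and 5.20 at ZT16 and 5.25 at ZT4. CG17721 lay at 3.55 and 4.75 at ZT16 and 4.74 at ZT4 with vehicle. Both had a wide range within the vehicle ZT16 pair. The folate enzyme gene pug had 5.81 and 5.0 at ZT16, against 4.18 and 3.46 at ZT4. CG12374 had 4.01 and 6.57 at ZT16, against 3.79 and 3.53 at ZT4, and its difference of 1.62 ± 0.92 was 0.34 without the second ZT16 replicate.

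**Figure D5:**
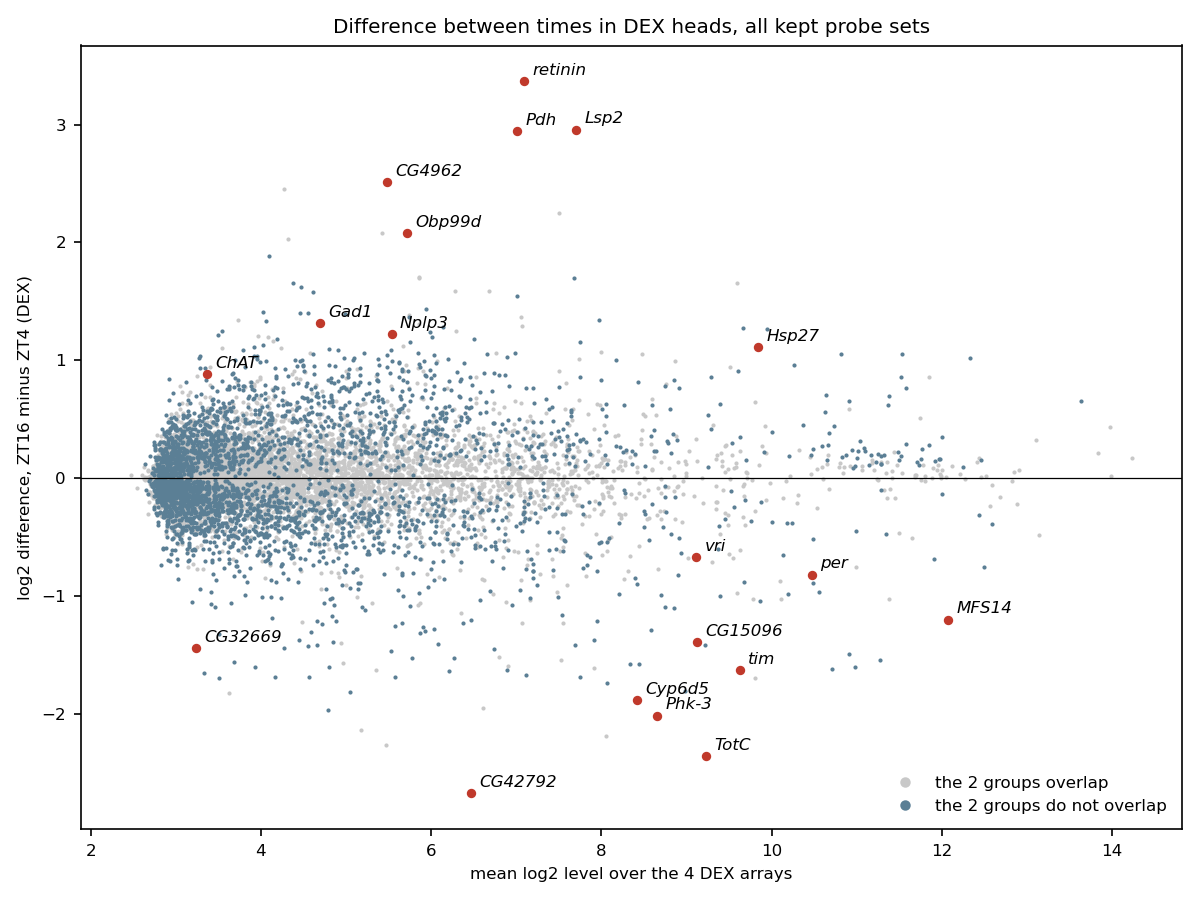
Log2 difference between ZT16 and ZT4 in DEX heads against the mean log2 level over the 4 DEX arrays, for the 11261 tested probe sets. Dark points are probe sets whose groups do not overlap; among the named genes (red), retinin, Pdh and Lsp2 lie highest, and tim and per lie below 0.

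Whether the time effect itself differed between treatments was tested over the 7 arrays with a labelled time. No probe set passed limma's test of DEX minus vehicle time effects (0 of 11261, 0%, smallest adjusted p 0.424). An unadjusted p under 0.05 was found for 306, of which 217 were positive (1.93%) and 89 negative (0.79%). The excess of positive values did not hold without single arrays. Negative values were the more common without the first or the second DEX ZT4 replicate, and without the second vehicle ZT16 replicate. Those fits leave a further group with 1 array and no spread of its own, so their counts by direction are not given. The smallest p was that of CG32669, with -1.49 ± 0.14. Values of other named genes were 0.96 ± 0.21 for Nplp1, -1.94 ± 0.43 for CG42249, -1.20 ± 0.30 for GATAe and -0.81 ± 0.15 for Kah. They were 1.12 ± 0.36 for Syn, 1.62 ± 0.50 for Obp99c and 0.43 ± 0.14 for Cpr78Cb. For CG32669 and CG42249 all timed arrays but those of DEX ZT4 lay below the filter level, where such values are uncertain. Kah lay at 2.76 to 2.92 outside DEX ZT4, close to that level. Cpr78Cb lay at 2.71 on both DEX ZT4 arrays, and at 2.83 and 2.67 at ZT16 and 2.71 at ZT4 with vehicle. The values of Kah and Cpr78Cb are thus uncertain too. For the clock genes the differences of time effects were -0.89 ± 0.82 for tim, -1.06 ± 0.64 for per and -0.31 ± 0.65 for vri. Without the second DEX ZT16 replicate they were -0.29 for tim, -0.51 for per and 0.23 for vri. The values were -0.11 ± 0.51 for Cyp6d5 and -0.77 ± 0.85 for TotC (-0.15 without the second DEX ZT16 replicate), and limma's adjusted p was 0.997 for both. For Cyp6d5 the value was 0.24 without the second vehicle ZT16 replicate.

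The time difference had the same sign with DEX and with vehicle for 5692 probe sets (50.5%). Across probe sets, which are not independent replicates, Pearson's r between both sets of differences was 0.18 and Spearman's rho 0.10, given as a description. ZT16 lay above ZT4 without overlap in both treatments for 488 probe sets (4.33%) and below it in both for 574 (5.1%). Of the 10 named genes with the largest differences towards lower levels at ZT16, 9 had the same sign with vehicle, and of the 10 towards higher levels 5 did. Of the 10 with the smallest p in each direction, 7 of those higher and 6 of those lower at ZT16 had the same sign with vehicle.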

How the data were processed

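The authors deposited intensity values in 1 table per array design, and the 8-array table was used here; the other table and 1 vehicle array with no labelled time entered no comparison. GCRMA is named per the submitters' processing notes, with no settings. Values exceed the range of a 16-bit scanner, so their natural log was taken as the log2 level; log2 of the values would make each difference 1.44 times as large. After removal of 183 control probe sets, those with a mean over 8 arrays above the 40th percentile were tested. Names come from the platform annotation (13647 probe sets with 1 gene, 402 with several, 4720 with none listed), with symbols brought up to date through a RefSeq table (Release 6 plus ISO1 MT). The probe set with the highest mean represents a gene. No 2 arrays held identical values.

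Tests were made with limma 3.58.1 (R 4.3.3; moderated, with a mean-variance trend) and Benjamini-Hochberg adjustment at 0.05. The time effect was fitted on the 4 DEX arrays and the DEX minus vehicle time effect on 7 arrays, where the spread of the lone vehicle ZT4 array is taken from the other groups. The fits were tested on simulated data. Named are, in each direction, the 10 genes with the smallest p and the 10 with the largest non-overlapping difference, every core clock gene, and up to 5 members per list by p. Genes of the ordered DEX and vehicle pattern were chosen after their values were seen. The comparison and the 27 lists were chosen with earlier results of these data known. Alternatives covered normalization, filters, trend, log base, the arrays fitted, array weights, the replicate block and each array left out.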

Additional observations from a re-analysis of the deposited data

How the results depend on the processing

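For the time effect in DEX heads, 0 probe sets passed under 12 of 14 alternatives, including each DEX array left out in turn (0 to 0), and 1 passed (CG32669) in limma's fit over 7 arrays (adjusted p 0.0366) and with array weights in that fit (adjusted p 0.0135). The count at an unadjusted p under 0.05 ran from 572 to 1324 with 1 array left out, with 1324 without the first ZT16 replicate and 1268 without the second. For the DEX minus vehicle time effect, 0 probe sets passed under the alternatives run, and the count at an unadjusted p under 0.05 was 585 with no filter, 170 with the filter at the 60th percentile, 199 with the replicate block and 286 to 1263 with 1 array left out (1263 without the second vehicle ZT16 replicate, 607 without the first, 580 without the first DEX ZT16 replicate). The lone vehicle ZT4 array could not be left out. Each fit with 1 array left out leaves that group with 1 array and no spread of its own. Its count rests on the spread of the remaining groups and cannot be compared with that of the full fit. No conclusion is drawn from the counts with 1 array left out. The replicate block gave 398 for the time effect, and replicate numbers were not taken to pair the arrays, since deviations of the DEX pairs correlated at -0.0082. Of 1445 values of 104 named genes, 1438 kept their direction. With 1 array left out, values ran from -0.16 to 1.19 for Pdp1, -1.63 to 0.62 for cwo, -0.23 to 0.45 for cry, -0.16 to 0.23 for cyc (with -0.11 without the first ZT4 replicate), -0.20 to 3.60 for Jon65Aiv and -0.077 to 0.95 for Yp3. Their DEX minus vehicle counterparts ran from -0.86 to 0.23 for vri, -0.59 to 1.41 for retinin (with -0.091 without the first DEX and -0.33 without the first vehicle ZT16 replicate) and -0.45 to 0.24 for Cyp6d5. The cause was not tested.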
